A study of Homo sapiens with 38 samples.

Results

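The full-length transcription factor Sp1 (Sp1 WT) and its isolated DNA binding domain (Sp1 DBD) were compared through the genomic sites at which an antibody to FLAG found them by CUT&RUN. Members were all peaks of the mouse anti-FLAG lists of these lines, 5151 for Sp1 WT and 3277 for the Sp1 DBD, together 8428 of the 27085 peaks in the 19 lists of the series. Both lines were made from U2OS, an osteosarcoma line, and from 1 clone in which both copies of endogenous Sp1 carry V5 and Halo tags. Both lines therefore also held full-length endogenous Sp1, and what it adds to either list cannot be told apart here. Each construct was a SNAPf fusion with 3xFLAG and nuclear localization signals, inserted at AAVS1 under a doxycycline-inducible promoter. The Sp1 DBD construct lacked the N-terminal intrinsically disordered region (IDR) and kept the zinc fingers and the short C-terminal IDR. Cells were treated with 1 μg/ml doxycycline for 36 h, sorted for expression and treated for another 36 h. Each line had 2 biological replicates. The lists hold no expression values, so the cell type could not be checked against marker genes.

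Sp1 is a widely expressed activator that binds GC boxes, short G- and C-rich elements common in the promoters of housekeeping genes. Its zinc fingers make the DNA contacts, and its glutamine-rich N-terminal region contacts coactivators and other Sp1 molecules. CCAAT boxes, bound by NF-Y, often lie near GC boxes in the same promoters, and AP-1 sites, bound by FOS and JUN proteins, are typical of enhancers.

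Each list was made from both replicates, and each peak carries a −log10 p-value for the first and for the second replicate given to the IDR procedure. Median values were 18.7 and 31.7 for Sp1 WT and 18.3 and 19.3 for the Sp1 DBD, so the second Sp1 WT replicate stood above the other 3. Values were therefore compared as ranks within a list. The percentile of a peak is its rank within its own list, with 100 for the highest. The paper reports read numbers of the libraries, but depth was not used here. Overlap with the anti-FLAG lists of the control lines, the parental line and the SNAPf-NLS line, was found for 20 Sp1 WT peaks and 22 Sp1 DBD peaks.

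The peaks that both lines shared are illustrated by 3 of the highest ranked promoters, shown because they differ widely in their motifs. The sequences are the + strand of hg38, 100 bases to either side of the Sp1 WT summit, from left to right. Capitals mark, on either strand, a GC box, which was searched as GGGCGG. They also mark CCAAT boxes, spelled by their name. They mark AP-1 sites too, searched as TGANTCA.
APLP1, chr19:35869900-35870100: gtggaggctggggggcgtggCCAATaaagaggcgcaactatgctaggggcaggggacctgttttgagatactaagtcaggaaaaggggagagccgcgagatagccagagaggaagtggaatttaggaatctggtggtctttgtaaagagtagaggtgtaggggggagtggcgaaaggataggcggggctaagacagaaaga
SIN3A, chr15:75451761-75451961: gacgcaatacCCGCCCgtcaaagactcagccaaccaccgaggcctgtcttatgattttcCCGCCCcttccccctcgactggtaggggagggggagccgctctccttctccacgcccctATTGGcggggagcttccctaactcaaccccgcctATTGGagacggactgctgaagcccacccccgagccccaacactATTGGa
SLC17A7, chr19:49442792-49442992: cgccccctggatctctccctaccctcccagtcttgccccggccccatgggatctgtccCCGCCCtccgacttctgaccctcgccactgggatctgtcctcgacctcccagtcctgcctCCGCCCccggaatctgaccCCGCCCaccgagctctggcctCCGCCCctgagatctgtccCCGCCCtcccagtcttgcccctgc

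The next windows are examples of sites found in 1 list only, chosen by their rank and not by their motifs. RAB3A and ZCCHC24 had peaks in the Sp1 WT list only, and NUDT8 in the Sp1 DBD list only, so its window is centred on the Sp1 DBD summit.
RAB3A, chr19:18204181-18204381: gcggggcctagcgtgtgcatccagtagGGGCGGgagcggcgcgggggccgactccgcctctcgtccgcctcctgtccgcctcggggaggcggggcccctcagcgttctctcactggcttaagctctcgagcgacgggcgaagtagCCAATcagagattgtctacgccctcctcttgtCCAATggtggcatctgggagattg
ZCCHC24, chr10:79445704-79445904: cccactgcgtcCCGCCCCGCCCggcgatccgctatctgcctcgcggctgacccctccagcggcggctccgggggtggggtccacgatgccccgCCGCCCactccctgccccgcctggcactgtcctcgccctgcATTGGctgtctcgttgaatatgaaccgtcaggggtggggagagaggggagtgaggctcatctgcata
NUDT8, chr11:67630022-67630222: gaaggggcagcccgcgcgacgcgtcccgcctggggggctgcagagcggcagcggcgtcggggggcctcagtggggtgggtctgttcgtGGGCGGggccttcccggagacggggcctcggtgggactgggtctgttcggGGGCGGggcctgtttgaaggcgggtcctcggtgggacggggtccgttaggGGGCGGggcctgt

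WDR43 and RBCK1 had peaks in both lists, with a much lower rank in the Sp1 DBD for WDR43 and a much higher one for RBCK1. FAM174B and ABCA2 are the genes with the nearest start of a protein-coding transcript to 2 intronic Sp1 WT peaks that had an AP-1 site and no counterpart in the Sp1 DBD list.
WDR43, chr2:28894407-28894607: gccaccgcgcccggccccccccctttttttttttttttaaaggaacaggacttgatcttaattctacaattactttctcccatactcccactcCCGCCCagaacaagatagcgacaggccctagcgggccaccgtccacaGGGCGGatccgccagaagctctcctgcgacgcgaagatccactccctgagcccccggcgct
RBCK1, chr20:407708-407908: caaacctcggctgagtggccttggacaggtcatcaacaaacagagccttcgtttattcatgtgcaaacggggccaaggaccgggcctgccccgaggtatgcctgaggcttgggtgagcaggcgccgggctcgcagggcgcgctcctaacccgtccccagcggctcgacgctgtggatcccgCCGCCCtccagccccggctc
FAM174B, chr15:92803879-92804079: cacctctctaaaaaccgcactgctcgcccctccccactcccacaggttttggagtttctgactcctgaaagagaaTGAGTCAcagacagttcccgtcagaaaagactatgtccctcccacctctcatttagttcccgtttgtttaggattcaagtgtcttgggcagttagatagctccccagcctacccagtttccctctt
ABCA2, chr9:137022062-137022262: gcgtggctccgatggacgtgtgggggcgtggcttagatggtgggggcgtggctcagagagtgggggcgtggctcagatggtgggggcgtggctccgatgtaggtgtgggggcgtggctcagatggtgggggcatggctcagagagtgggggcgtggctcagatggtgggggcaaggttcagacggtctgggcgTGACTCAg

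The Sp1 DBD kept most of the strongest Sp1 WT sites and few of the weakest. Of the 5151 Sp1 WT peaks, 2506 overlapped an Sp1 DBD peak by at least 1 bp, a share of 48.7% (95% Wilson interval 47.3 to 50.0%). These are called kept, and the other 2645 are called Sp1 WT-only. The share kept was 89.7% in the highest of 10 equal rank bins of the Sp1 WT list, 50.7% in the fifth and 16.5% in the lowest. In the other direction, 2509 of 3277 Sp1 DBD peaks overlapped an Sp1 WT peak, a share of 76.6% (75.1 to 78.0%), and the other 768 are called Sp1 DBD-only. That share had no such slope at the top, being 79.6% in the highest bin, 84.8% in the next and 58.4% in the lowest. When both lists were cut to their 3277 highest peaks, the shares came to 61.9% and 62.2%. The overlaps were deep, since the smallest covered 52.7% of the shorter peak. Near misses were few, with 39 Sp1 WT-only and 22 Sp1 DBD-only peaks within 1000 bp of a peak of the other list. Intervals cover counting error over peaks only, and a peak missing from a list failed the authors' threshold there, which does not show that the protein was absent.

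**Figure D1:**
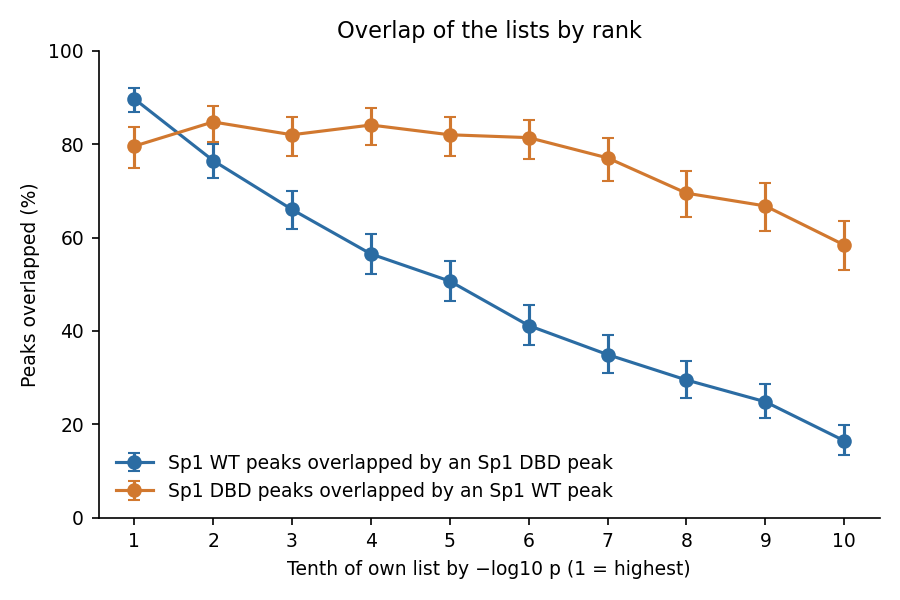
Share of peaks overlapped by the other list (y axis, percent) in 10 equal bins of each list by −log10 p (x axis, 1 is the highest), with 95% Wilson intervals as bars. The share of Sp1 WT peaks that overlap an Sp1 DBD peak falls from 89.7% to 16.5%, while that of Sp1 DBD peaks stays between 77.1% and 84.8% over the first 7 bins and ends at 58.4%.

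Promoter peaks were kept more often than distal peaks. A summit within 1000 bp of any annotated transcription start was counted as a promoter peak. Among the 3850 Sp1 WT peaks at starts of protein-coding transcripts 53.3% were kept, among the 470 at other starts 45.3%, and among the 831 with no start within 1000 bp 28.9%. Seen from the other side, 90.4% of kept and 77.7% of Sp1 WT-only peaks were at a start (odds ratio 2.72, two-sided Fisher's exact test, adjusted p = 1.0e-35). At an IDR threshold of 0.01 the odds ratio was lower, at 1.485 (Fisher's exact test, p = 0.0026). Kept peaks ranked far higher, with a median percentile of 68.3 against 34.4. The promoter difference was as large among peaks of like rank, with an odds ratio of 2.69 over 4 rank classes of equal size (Cochran-Mantel-Haenszel p = 2.4e-28, n = 5151 peaks). In the highest class 89.95% of 1035 kept and 79.4% of 252 Sp1 WT-only peaks were at a start, and in the lowest 88.1% of 286 and 77.2% of 1002. All p-values over peaks compare these lists and not cultures, and neighbouring peaks are not independent.

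GC boxes followed the same order. A GC box lay within 100 bp of the summit in 77.6% of kept and 63.1% of Sp1 WT-only peaks (odds ratio 2.02, Fisher's exact test, adjusted p = 2.5e-29). The odds ratio was 3.32 for a GC box within 250 bp of the summit and 5.87 for one anywhere in the peak (Fisher's exact tests, p = 5.2e-35 and 9.1e-46), where kept peaks were also wider, with a median of 1102 bp against 790 bp. For comparison, 51.0% of 22198 RefSeq promoter windows of the same length (201 bases, GRCh38.p14) held one. Kept peaks had a median of 4 GC boxes within 250 bp and Sp1 WT-only peaks 2. The longer form GGGGCGGGG, which contains the GC box, was found in 31.6% and 23.0% (adjusted p = 8.1e-12, Fisher's exact test). The difference held at protein-coding promoters, where 79.3% of kept and 71.0% of Sp1 WT-only peaks had a GC box, and was wider away from starts, with 62.9% of 240 against 39.6% of 591 (adjusted p = 7.4e-09 and 2.4e-09, Fisher's exact tests). Over the rank classes the odds ratio was 2.08 (Cochran-Mantel-Haenszel p = 1.1e-25, n = 5151 peaks). Kept sites were also richer in G and C, with a median of 67.3% against 64.1% over 501 bases, and within 4 equal classes of this measure the odds ratio of the GC box was 1.58 (Cochran-Mantel-Haenszel p = 4.1e-12, n = 5151 peaks). The part of base composition in the difference was not tested further.

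AP-1 sites went the other way. They lay within 100 bp of the summit in 54 of 2506 kept peaks (2.16%) and in 179 of 2645 Sp1 WT-only peaks (6.77%), and were thus 3.3 times as common by odds among the peaks that the Sp1 DBD list lacked (Fisher's exact test, adjusted p = 9.9e-16). Among peaks with no start within 1000 bp the counts were 10 of 240 (4.17%) and 99 of 591 (16.8%), an odds ratio of 4.63 (adjusted p = 3.6e-07, Fisher's exact test) that came to 3.07 over the rank classes (Cochran-Mantel-Haenszel p = 0.0014, n = 831 peaks). At protein-coding promoters they were 1.705% and 3.17% (adjusted p = 0.0059, Fisher's exact test). Over the rank classes this last difference missed the threshold (Cochran-Mantel-Haenszel p = 0.053, n = 3850 peaks). Of all RefSeq promoter windows, 4.47% held an AP-1 site. The highest ranked of the distal Sp1 WT-only peaks with an AP-1 site lay nearest to starts of protein-coding transcripts of ABCA2, a lipid transporter, HPCAL1, a neuronal calcium sensor, FAM174B and MSI2, an RNA-binding protein, with summits 6075, −11456, 5819 and 10993 bp from them, negative upstream. Another annotated start of ABCA2 lay 1357 bp from its summit. The ABCA2 peak had −log10 p-values of 42.2 and 62.4 in the Sp1 WT replicates, and the FAM174B peak 42.0 and 30.5. The cAMP response element TGACGTCA was likewise commoner in Sp1 WT-only peaks, at 1.59% against 0.64% (adjusted p = 0.0021, Fisher's exact test). Windows of repeated sequence were 8.36% of Sp1 WT-only and 5.23% of kept peaks (adjusted p = 1.6e-05, Fisher's exact test), and 16 and 4 of these peaks overlapped a control list. With each kind left out in turn, the promoter, GC box and AP-1 differences of the Sp1 WT list kept their direction and passed the threshold.

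The other motifs searched at Sp1 WT peaks did not separate kept from Sp1 WT-only peaks beyond the threshold. CCAAT boxes were found in 30.6% and 29.5% (adjusted p = 0.46), CACCC boxes (CCACCC) in 34.9% and 34.2% (adjusted p = 0.72), and the ETS core CCGGAAG in 8.26% and 8.39% (adjusted p = 0.92, Fisher's exact tests). The NRF1 core GCGCATGCG, the YY1 core AAGATGGCG and the E box CACGTG were each in 5.14% of peaks or fewer, with adjusted p-values of 0.92, 0.25 and 0.18. Over the rank classes the CCAAT odds ratio was 0.87 (Cochran-Mantel-Haenszel p = 0.044, n = 5151 peaks). In the lowest class 27.45% of Sp1 WT-only and 18.9% of kept peaks had a CCAAT box (Fisher's exact test, p = 0.0034). In each of the other classes p was 0.21 or more by Fisher's exact test, and in the highest the shares were 33.3% and 35.6%. Over classes of GC content the CCAAT odds ratio was above 1, at 1.20 (Cochran-Mantel-Haenszel p = 0.0039, n = 5151 peaks). All RefSeq windows gave 28.8% for CCAAT.

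**Figure D2:**
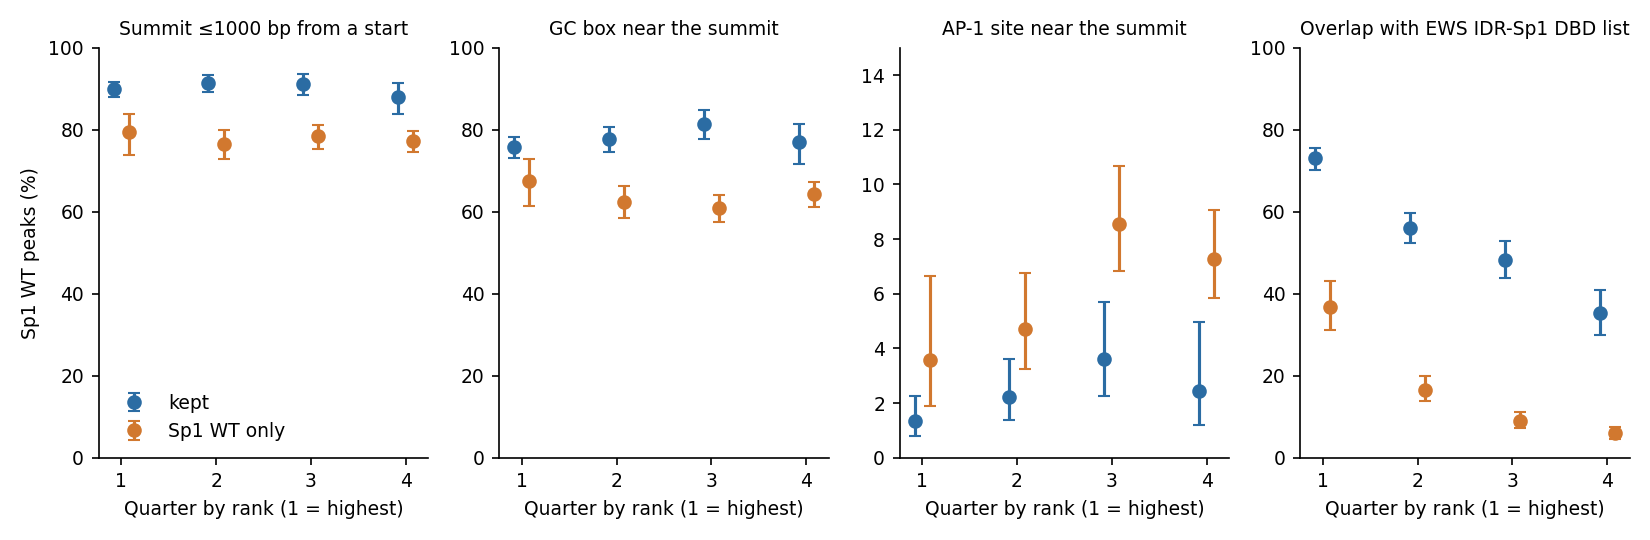
Shares of kept (blue) and Sp1 WT-only (orange) peaks in 4 equal classes of the Sp1 WT list by rank (x axis, 1 is the highest), with 95% Wilson intervals. The 4 panels give, in percent, summits within 1000 bp of a start, with a GC box and with an AP-1 site within 100 bp (y axis to 15%), and peaks that overlap the list of the EWS IDR–Sp1 DBD chimera. Kept peaks lie above for starts, GC boxes and the chimera and below for AP-1 sites in all 4 classes.

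The lists of endogenous Sp1 and of a chimera give readouts from other libraries. Rabbit anti-V5 in the parental line, which marks endogenous Sp1, overlapped 41.0% of kept and 20.7% of Sp1 WT-only peaks (odds ratio 2.66, Fisher's exact test, adjusted p = 1.2e-55). Pooled over the rank classes the difference was not detected, with an odds ratio of 1.05 (Cochran-Mantel-Haenszel p = 0.53, n = 5151 peaks). The direction was not the same in all classes. In the highest class the shares were 69.3% and 61.1% (Fisher's exact test, p = 0.016). The second class had 31.05% and 30.9%, and the lowest 5.59% and 8.78% (p = 0.086, Fisher's exact test). With the mouse anti-V5 list a smaller difference remained over the rank classes, with an odds ratio of 1.28 (p = 0.0018 by the same test, n = 5151 peaks). The chimera in which the IDR of EWS replaces that of Sp1, seen with the same mouse anti-FLAG antibody, overlapped 59.3% of kept and 12.2% of Sp1 WT-only peaks (odds ratio 10.5, Fisher's exact test, adjusted p = 3.7e-289). That difference held within rank, with an odds ratio of 6.79 (Cochran-Mantel-Haenszel p = 1.1e-160, n = 5151 peaks), and in the highest class 73.0% of kept and 36.9% of Sp1 WT-only peaks were in the chimera list.

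The promoters that ranked highest in both lists belonged to genes of unlike function. APLP1, an amyloid precursor-like protein, had −log10 p-values of 129 and 160 in Sp1 WT and 92.5 and 80.4 in the Sp1 DBD. SIN3A, the scaffold of a histone deacetylase corepressor, had 110 and 138 against 90.8 and 76.3, over peaks of 6240 and 6150 bp. SLC17A7, a vesicular glutamate transporter, had 100.3 and 122 against 84.0 and 69.5. The other 5 were ZFP41, SLC27A1, IMPA2, CACFD1 and PRX, at percentiles of 99.18 or more in both lists. SLC27A1 takes up fatty acids and IMPA2 is an inositol monophosphatase. APLP1 and PRX had no GC box within 100 bp of the Sp1 WT summit, and SLC17A7 had 5.

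Strong peaks that only the Sp1 WT list held were in most cases also in a list of endogenous Sp1. RAB3A, a GTPase of synaptic vesicles, had −log10 p-values of 79.1 and 109 and a width of 3413 bp. ZCCHC24 had 74.2 and 92.2, and GNAI2, a G protein subunit, had 66.2 and 87.9. HNRNPL, an RNA-binding splicing regulator, had 65.5 and 108, and ELL, a Pol II elongation factor, had 63.2 and 112. With TMEM276, PPP1R13L and the unnamed gene ENSG00000267952, these are the 8 highest of this kind, from percentile 96.8 to 99.5. All 8 overlapped at least 1 anti-V5 list, and 6 overlapped the chimera list.

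The same was seen on the Sp1 DBD side. ATXN7L3, a subunit of the SAGA deubiquitinase module, had −log10 p-values of 75.3 and 76.8 in the Sp1 DBD and no Sp1 WT summit at its starts. SAP130, a subunit of the SIN3 corepressor, had 77.7 and 70.7, and OGG1, which removes oxidized guanine from DNA, had 63.9 and 59.6. ZBTB20, NUDT8, ZBTB22, GRK6 and NRM completed the 8 highest, at percentiles from 96.9 to 99.7. All 8 overlapped both anti-V5 lists. In the highest rank class of each list, 66.7% of 252 Sp1 WT-only peaks (60.6 to 72.2%) and 69.9% of 143 Sp1 DBD-only peaks (62.0 to 76.8%) overlapped an anti-V5 list of endogenous Sp1, against 77.9% and 75.4% of kept peaks in those classes. Peaks of 2000 bp or more made up 32.2% of the strong Sp1 DBD-only peaks and 13.02% of the strong kept ones, and 18.3% and 13.9% in the Sp1 WT list.

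Sp1 DBD-only peaks as a whole were weaker and less often at starts than kept ones. They had a median percentile of 35.5 against 53.9, and 83.2% against 90.4% were promoter peaks (odds ratio of kept against Sp1 DBD-only 1.89, Fisher's exact test, adjusted p = 7.0e-07). GC boxes were at 72.0% and 76.2% (adjusted p = 0.044, Fisher's exact test). Over 4 classes of Sp1 DBD rank the odds ratio was 1.13 (Cochran-Mantel-Haenszel p = 0.23, n = 3277 peaks), against 1.24 without classes, and for a GC box within 250 bp or anywhere in the peak it was 1.72 and 2.07 (Fisher's exact tests, p = 0.0012 and 1.7e-04). At protein-coding promoters GC boxes were at 77.1% and 78.5% (adjusted p = 0.63, Fisher's exact test). Here CCAAT boxes and the ETS core differed. CCAAT boxes were found in 21.0% of Sp1 DBD-only and 29.2% of kept peaks (odds ratio of kept against Sp1 DBD-only 1.55, adjusted p = 2.5e-05, Fisher's exact test). The ETS core was found in 4.04% and 7.45% (adjusted p = 0.0014) and AP-1 sites in 2.34% and 1.99% (adjusted p = 0.73, Fisher's exact tests). Rabbit anti-V5 overlapped 24.7% of Sp1 DBD-only and 41.1% of kept peaks, and the chimera list 43.4% and 59.1% (adjusted p = 7.0e-16 and 1.4e-13, Fisher's exact tests). Repeated sequence and control peaks moved with the same split. Windows made mostly of repeated words were 9.64% of Sp1 DBD-only and 5.102% of kept peaks, and 18 of 768 Sp1 DBD-only peaks (2.34%) overlapped a control list against 4 of 2509 kept ones. Their part in the other differences of this list was not tested beyond leaving them out. Without control peaks the GC box difference missed the threshold (odds ratio 1.146, Fisher's exact test, p = 0.16), and the CCAAT difference kept its direction and its side of it. The promoter odds ratio was lower than 1.89 in both cases. It was 1.655 without control peaks and 1.39 without repeated sequence (Fisher's exact tests, p = 6.8e-05 and 0.029).

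At shared sites the ranks of Sp1 WT and the Sp1 DBD were related but less closely than replicates of a line. A shared site is a peak of each list that overlaps only the other, and there were 2482. Spearman's rho across these sites was 0.63 between the lists, 0.83 between the Sp1 WT replicates and 0.79 between the Sp1 DBD replicates, and from 0.58 to 0.72 for single replicates of different lines. Each list had passed the IDR threshold, which selects peaks whose replicates agree in rank, and no such filter joined the lines. The rho of replicates is thus favoured by selection, and by how much was not tested. Sites share libraries and are not independent, so no p is given. Replicate values were then ranked among the 2482 sites from 0 to 100. The rank was higher in both Sp1 DBD replicates than in both Sp1 WT replicates at 689 sites (27.8%) and lower at 658 (26.5%). With percentiles of the whole own lists in place of ranks among shared sites, the counts were 295 and 1173. With 2 replicates a line, no single site can be tested below p = 0.33 by an exact permutation test. If replicate values were exchangeable between the lines, this rule would call a share of 0.33 of sites, both directions together.

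**Figure D3:**
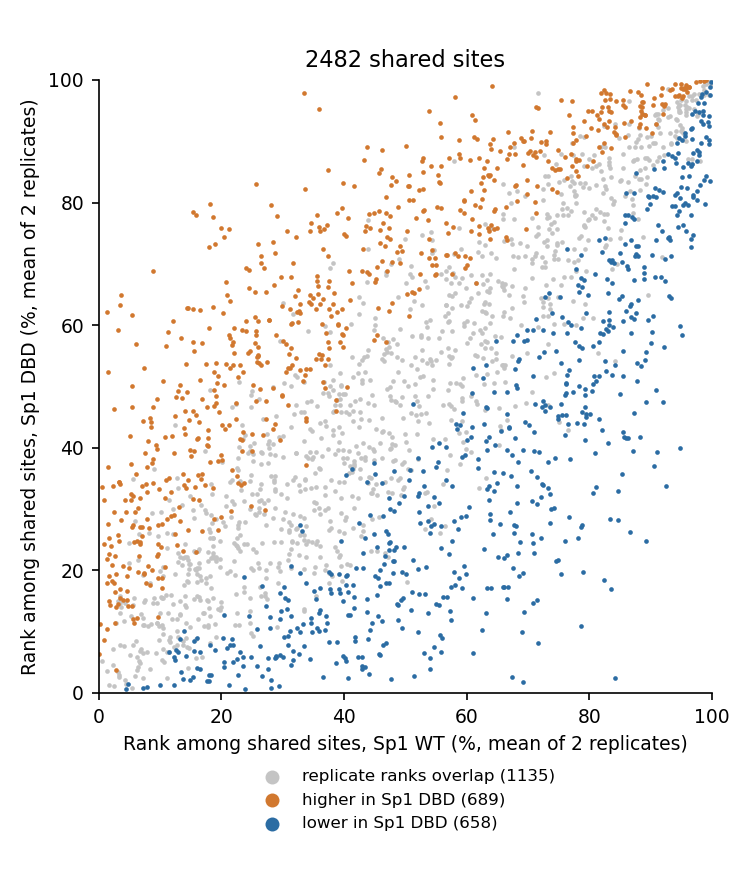
Mean rank of each of the 2482 shared sites among these sites in Sp1 WT (x axis, percent) and the Sp1 DBD (y axis, percent), each over 2 replicates. Orange points (689) ranked higher in both Sp1 DBD replicates, blue points (658) lower, and grey points have overlapping replicate ranks.

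Sites that ranked lower in the Sp1 DBD held more CCAAT boxes and fewer GC boxes. A CCAAT box lay within 100 bp of the Sp1 WT summit at 282 of 658 sites that ranked lower (42.9%) and at 155 of 689 that ranked higher (22.5%), an odds ratio of 2.58 (Fisher's exact test, adjusted p = 6.6e-15). With windows at the Sp1 DBD summit the shares were 40.6% and 20.5%. GC boxes were found at 71.4% of sites that ranked lower and 82.0% of those that ranked higher (adjusted p = 1.4e-05, Fisher's exact test), with a mean of 1.49 and 2.25 per site. Median GC content was 64.9% and 69.5%. Within 4 classes of GC content the CCAAT odds ratio, here of higher against lower rank, was 0.46 (Cochran-Mantel-Haenszel p = 1.1e-09), while that of the GC box was 1.33 (p = 0.049, n = 1347 sites for both). Shared sites were also put into 4 equal classes of the rank difference between 1 replicate of each line, and the highest class was compared with the lowest. The GC box odds ratio then ranged from 1.13, with the second Sp1 WT and the first Sp1 DBD values (Fisher's exact test, p = 0.38), to 2.64. That of the CCAAT box ranged from 0.41 to 0.56. The NRF1 core was in 16 sites that ranked lower (2.43%) and 4 that ranked higher (0.58%, adjusted p = 0.013, Fisher's exact test). AP-1 sites were found at 16 and 18 (adjusted p = 0.92, Fisher's exact test). These motif tests were chosen after the ranks had been seen.

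The same sites split the lists of the other proteins. Endogenous Sp1, by rabbit anti-V5, was found at 57.8% of sites that ranked lower in the Sp1 DBD and at 29.2% of those that ranked higher (odds ratio 3.32, Fisher's exact test, adjusted p = 3.2e-25). The EWS chimera was found at 45.4% and 72.4%, the opposite order (adjusted p = 2.7e-23, Fisher's exact test). Sites that ranked lower in the Sp1 DBD ranked higher in Sp1 WT by this choice, and overlap with anti-V5 went with Sp1 WT rank, from 80.97% in the highest of 4 classes of shared sites to 7.57% in the lowest. Within these classes of Sp1 WT rank the anti-V5 odds ratio of lower against higher sites was 1.59 (Cochran-Mantel-Haenszel p = 9.7e-04, n = 1347 sites), and within classes of Sp1 DBD rank 9.63 (p = 2.9e-53 by the same test, n = 1347 sites). That of the chimera, for higher against lower sites, was 3.15 without classes, 8.75 within Sp1 WT rank and 1.67 within Sp1 DBD rank (Cochran-Mantel-Haenszel p = 8.5e-47 and 1.8e-04, n = 1347 sites). The size of both differences thus depended on which line's rank was matched. Those of the CCAAT box and the GC box, for higher against lower sites, were 0.45 and 1.76 within Sp1 WT rank and 0.34 and 1.77 within Sp1 DBD rank. In 10 equal bins of the rank difference, the share in the anti-V5 list went from 63.1% in the bin with the largest loss of rank to 12.9% in that with the largest gain, and the share in the chimera list from 29.7% to 70.6%.

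**Figure D4:**
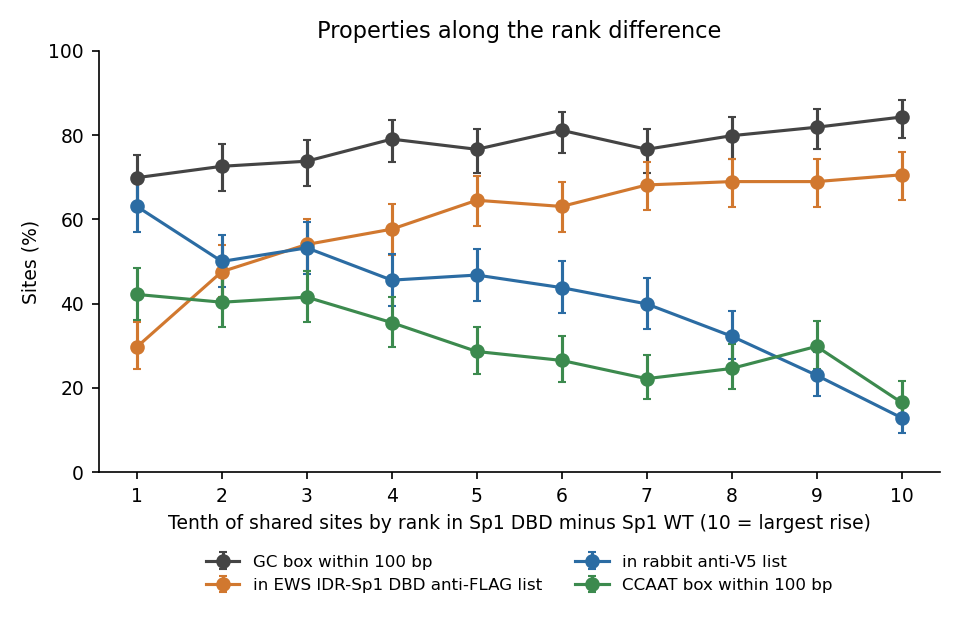
Share of shared sites (y axis, percent, with 95% Wilson intervals) that hold a GC box or a CCAAT box within 100 bp of the Sp1 WT summit, or overlap the rabbit anti-V5 or the EWS IDR–Sp1 DBD list, in 10 equal bins of the rank difference, Sp1 DBD minus Sp1 WT (x axis, 10 is the largest gain). CCAAT boxes go from 42.2% to 16.5% and the anti-V5 list from 63.1% to 12.9%, while GC boxes go from 69.9% to 84.3% and the chimera list from 29.7% to 70.6%.

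The 4 promoters with the largest difference of rank in each direction are given by gene. ERG28, an endoplasmic reticulum protein of sterol synthesis, ranked at 82.9 and 85.4 in the Sp1 WT replicates and at 0.06 and 4.71 in the Sp1 DBD replicates. WDR43, which acts in ribosome assembly, ranked at 79.7 and 55.3 against 0.62 and 4.71, and SYS1, a Golgi trafficking protein, at 90.4 and 88.1 against 30.8 and 18.9. The kinase LMTK3 ranked at 88.3 and 68.9 against 11.9 and 9.93. In the other direction CNNM3, a magnesium transport protein, ranked at 15.6 and 51.5 in Sp1 WT and at 99.4 and 96.1 in the Sp1 DBD. RBCK1, a subunit of the linear ubiquitin ligase, ranked at 1.83 and 5.30 against 67.6 and 62.3. The zinc finger proteins ZNF407 and ZNF384 gained 63.0 and 61.6 points in the mean of the replicates. Replicates of the lines did not overlap at any of these 8 sites, as the rule required. None of the 4 that ranked lower was in the chimera list, and 3 of the 4 that ranked higher were, all but RBCK1.

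Peaks at shared sites were narrower for the Sp1 DBD when the lists were compared, and the size of the difference depended on the replicate. Merged peaks had a median width of 1100 bp in Sp1 WT and 922 bp in the Sp1 DBD, with a median ratio per site of 0.87. The replicate medians were 849 and 1070 bp for Sp1 WT and 853.5 and 797 bp for the Sp1 DBD, so the first Sp1 WT replicate lay with the Sp1 DBD replicates. From the first replicate values alone the ratio was 0.99, and from the second 0.79. Both Sp1 DBD widths were below both Sp1 WT widths at 961 sites (38.7%) and above them at 201 (8.10%). Widths exchangeable between the lines would be called at a share of 0.33 of sites, both directions together. The second Sp1 WT replicate also had the higher −log10 p-values, and its part in the width was not tested beyond this.

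Summits of the lines lay about as far apart as those of replicates. The median distance between the Sp1 WT and the Sp1 DBD summit was 35.5 bp, against 40 bp between the Sp1 WT replicates and 40.5 bp between the Sp1 DBD replicates. Single replicates of different lines lay 36 to 48 bp apart. At 2027 shared sites near starts of protein-coding transcripts the median summit was 93 bp upstream of the start in Sp1 WT and 91 bp upstream in the Sp1 DBD, and 69.8% and 66.9% of the summits were upstream. Of shifts of 50 bp or more, 442 were downstream in the Sp1 DBD and 373 upstream, 54.2% downstream (50.8 to 57.6%, exact two-sided binomial p = 0.017). The replicates of the Sp1 DBD showed a larger imbalance among themselves, with the second downstream of the first at 386 sites and upstream at 498 (exact binomial p = 1.9e-04), and the shift of the Sp1 DBD was 56.5% downstream from the first replicate values alone (exact binomial p = 4.3e-05) and 50.3% from the second (exact binomial p = 0.89). A GC box lay within 100 bp of both summits at 1725 of the shared sites, of the Sp1 WT summit alone at 200 and of the Sp1 DBD summit alone at 165 (exact binomial p = 0.075).

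Of 19676 protein-coding genes, 2366 (12.02%) had a promoter summit in both lists, 2023 (10.3%) in the Sp1 WT list only and 622 (3.16%) in the Sp1 DBD list only. With both lists cut to equal length the one-list counts were 981 and 1027. Thus 53.9% of genes with an Sp1 WT promoter peak also had an Sp1 DBD one (52.4 to 55.4%). The 16 gene lists below were described against these shares without a test, and 1 peak at a shared promoter can serve 2 genes.

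A minority of the ribosomal protein genes with an Sp1 WT peak also had an Sp1 DBD peak. Of 89 cytosolic ribosomal protein genes 6 had a summit in both lists, 13 in Sp1 WT only and 0 in the Sp1 DBD only, so 31.6% of those with an Sp1 WT peak were kept (15.4 to 54.0%). Their Sp1 WT peaks were weak, with a median percentile of 25.7 against 54.0 for all genes. RPS19 was the strongest kept one, with −log10 p-values of 63.1 and 72.2 in Sp1 WT and 41.8 and 35.8 in the Sp1 DBD. RPS4X and FAU were among those in Sp1 WT only. Of 78 mitochondrial ribosomal protein genes 9 were kept, 15 were in Sp1 WT only and 1, MRPS6, in the Sp1 DBD only. Of those with an Sp1 WT peak 37.5% were kept (21.2 to 57.3%). The intervals of both lists included the 53.9% of all genes. MRPL2 was the strongest kept one, at percentile 96.9 in Sp1 WT and 94.3 in the Sp1 DBD. MRPS28, MRPL38 and MRPS18B led the Sp1 WT-only ones, at percentiles from 82.1 to 89.6.

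Oxidative phosphorylation, proteasome and splicing genes were split between kept and Sp1 WT-only. Of all protein-coding genes 12.02% were kept, 10.3% were in Sp1 WT only and 3.16% in the Sp1 DBD only. Of 78 oxidative phosphorylation genes 7 (8.97%) were kept and 10 (12.8%) were in Sp1 WT only. NDUFA11, a subunit of complex I, was kept with 66.7 and 114 against 28.97 and 53.3, while SDHB, the iron-sulfur subunit of complex II, had 49.8 and 74.3 in Sp1 WT and no Sp1 DBD summit. ATP5F1B and NDUFB11 followed it. Of 39 proteasome genes 6 (15.4%) were kept, 10 (25.6%) were in Sp1 WT only and 1 (2.56%), PSMD13, in the Sp1 DBD only. PSMA5, PSMA2 and PSMC3 led the Sp1 WT-only ones, and the PSMA2 peak is also that of MRPL32. At the shared start region of PSMB8 and PSMB9, 1 Sp1 WT peak faced separate Sp1 DBD summits, at percentile 0.12 for PSMB8 and 72.5 for PSMB9. Of 59 splicing factor genes 7 (11.9%) were kept and 10 (16.95%) were in Sp1 WT only, led by SNRPA, SRSF4 and SRSF2, at percentiles from 75.7 to 85.03. SF3B6, SNRPD2 and SNRPD3 led the kept ones in the Sp1 WT list, and SNRPD3 stood at percentile 98.6 there and at 35.2 in the Sp1 DBD list.

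DNA replication and cell cycle genes were found among kept, Sp1 WT-only and Sp1 DBD-only promoters. Of 47 DNA replication genes 12 (25.5%) were kept, 9 (19.15%) were in Sp1 WT only and 2 (4.255%) in the Sp1 DBD only. For all protein-coding genes these shares were 12.02%, 10.3% and 3.16%. ORC6, a subunit of the origin recognition complex, was kept with 62.4 and 74.8 against 32.9 and 30.8, and PCNA, the sliding clamp, with 41.5 and 65.1 against 22.1 and 16.04. The helicase subunit MCM3 had 31.4 and 48.3 in Sp1 WT alone, followed by TIMELESS and CDC45, and GINS1 and POLE4 had peaks in the Sp1 DBD alone. Of 16 genes for nucleotide synthesis 6 (37.5%) were kept, among them TK1 and CTPS1, and TYMS and ATIC (12.5%) were in Sp1 WT only. PAICS and PPAT, which share 1 promoter and 1 peak, and RRM2, a subunit of ribonucleotide reductase, were in the Sp1 DBD only, so 18.8% of this short list lay there against 3.16% of all genes. RRM2 had −log10 p-values of 37.1 and 26.5. Of 32 cell cycle regulators 5 (15.6%) were kept, CCNE1 highest in the Sp1 DBD list at percentile 88.8. In Sp1 WT only were 7 (21.9%), led by E2F1, CDC25A and CDK4 at percentiles from 67.6 to 73.6. CDKN2C and CCNA2 (6.25%) were in the Sp1 DBD only.

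Sterol genes were the list with the largest share of Sp1 WT promoter peaks among the 16 lists. Of 30 genes of cholesterol and fatty acid synthesis 18 had an Sp1 WT promoter peak, 60.0% against 22.3% of all genes. Of these, 10 were kept and 8 were in Sp1 WT only, and 0 were in the Sp1 DBD only. PMVK, a kinase of the mevalonate pathway, was kept with 38.8 and 66.8 against 27.6 and 25.2. The regulators SREBF1 and SREBF2 were both kept, SREBF1 at percentile 7.07 in Sp1 WT and 54.5 in the Sp1 DBD. LSS and EBP, enzymes of sterol synthesis, were among the Sp1 WT-only ones.

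Among genes for Sp1 relatives, 8 of 27 SP and KLF genes (29.6%) were kept. In Sp1 WT only were 5 (18.5%), and in the Sp1 DBD only 2 (7.41%). For all protein-coding genes these shares were 12.02%, 10.3% and 3.16%. SP4 had 63.7 and 95.7 in Sp1 WT and 60.7 and 57.4 in the Sp1 DBD, and KLF10 had 55.1 and 99.7 against 42.7 and 55.4. SP3 and SP2 were kept too. SP1 itself was in the Sp1 DBD list only, with −log10 p-values of 35.8 and 89.5 and a width of 2357 bp, and KLF12 with 31.1 and 24.1. KLF16, KLF3 and KLF2 led those in Sp1 WT only. Of 73 genes for Mediator, Pol II and general transcription factors such as TFIID, 13 (17.8%) were kept, with MED20 and POLR2I highest. In Sp1 WT only were 10 (13.7%), led by MED25, GTF2H4 and MED29, and MED16 (1.37%) was in the Sp1 DBD only. The aminoacyl-tRNA synthetase genes had 6 kept of 35 (17.1%), YARS1 and CARS2 highest. TARS1, SARS2 and NARS2 led 4 (11.4%) in Sp1 WT only, and SARS1 (2.86%) was in the Sp1 DBD only.

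The largest list stood near the background. Of 240 zinc finger genes on chromosome 19, 22 were kept, 27 were in Sp1 WT only and 7 in the Sp1 DBD only. These shares of 9.17%, 11.2% and 2.92% lay near the 12.02%, 10.3% and 3.16% of all protein-coding genes. ZNF846 stood at percentiles 98.2 and 99.2 and ZNF558 at 97.2 and 99.45, ZNF414, ZNF497 and ZNF616 led the Sp1 WT-only ones and ZNF524, ZNF865 and ZNF470 the Sp1 DBD-only ones. Of 91 genes of extracellular matrix and adhesion 7 (7.69%) were kept. In Sp1 WT only were 5 (5.495%), led by COL5A1, COL13A1 and ITGA1, and in the Sp1 DBD only 3 (3.30%), ITGA3, COL1A1 and COL6A2. Of 69 replication-dependent histone genes 2 (2.90%) were kept. In Sp1 WT only were 3 (4.35%), H4C8 and the pair H2AC11 and H2BC11 with 1 peak. Of 39 HOX genes only HOXC13 had a promoter summit, in both lists.

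**Figure D5:**
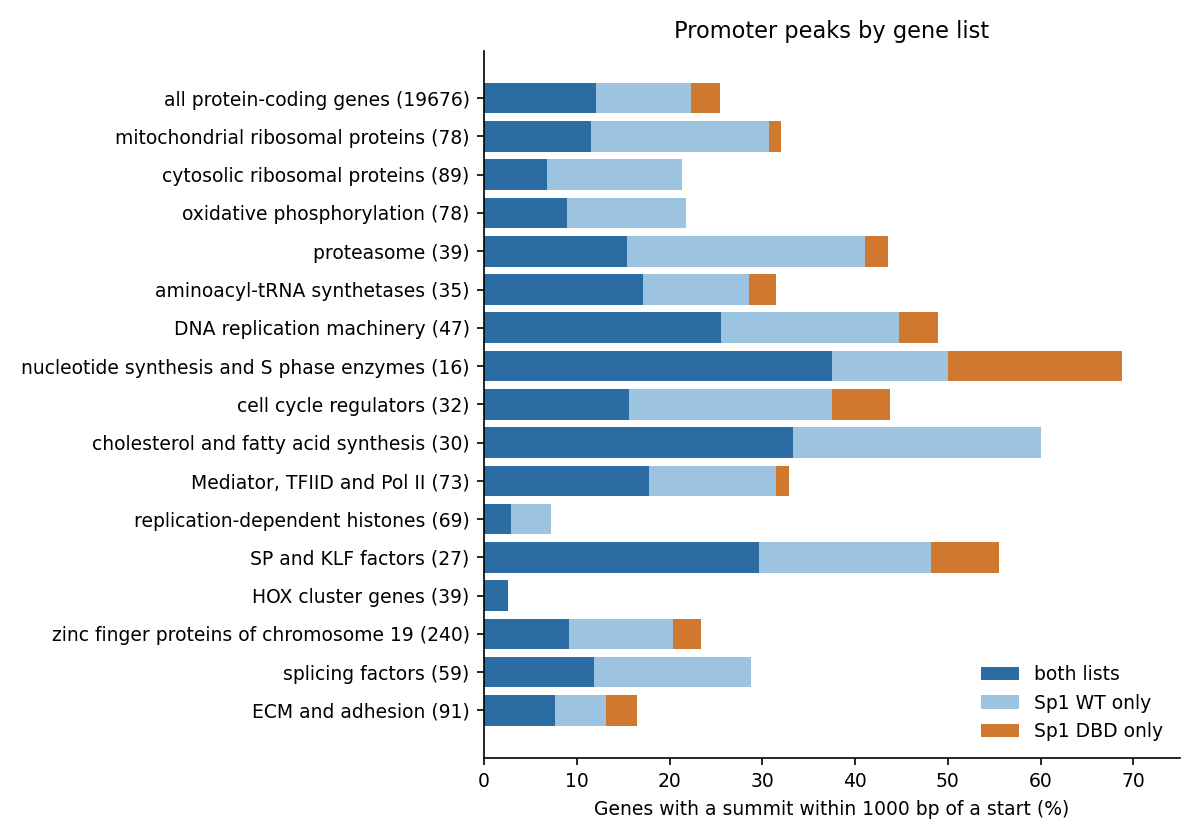
Share of the genes of each list (x axis, percent; number of genes in brackets) with a promoter summit in both lists (dark blue), in Sp1 WT only (light blue) or in the Sp1 DBD only (orange), with all protein-coding genes in the top bar at 12.02%, 10.3% and 3.16%. The bars are longest for nucleotide synthesis, with 11 of 16 genes, and cholesterol and fatty acid synthesis, with 18 of 30, and shortest for HOX genes, with 1 of 39.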

How the data were processed

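Peaks of CUT&RUN with mouse anti-FLAG in Sp1 WT and Sp1 DBD cells were compared, with 2 biological replicates a line by the labels. Per the study's methods and the submitters' notes, adapters were removed with cutadapt 2.6, alignment to hg38 used Bowtie2 2.3.5.1 and duplicate removal SAMtools 1.9. MACS3 (given as 2.2.7.1) then called peaks at a p-value of 1e-3 replicate by replicate over pooled controls, and peaks with an IDR up to 0.1 were kept. The −log10 p-values, as deposited by the authors, describe both replicate peaks and the merged peak, which carries the smaller one. The deposited score is the −log10 of the global IDR and served for stricter thresholds. The order of the labelled replicates in the columns is unknown. The differential regions were not used.

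Overlaps were computed with Python 3.11.15 and pandas 2.3.3, with the same counts from bedtools 2.31.1. Starts and exons were those of GENCODE 44. Motifs were searched on both strands within 100 bp of summits. A window was called repeated sequence where at least 50% of its 31-base words occurred more than once. The promoter background was 22198 RefSeq windows from −193 to +7 bp of starts. Shares have 95% Wilson intervals. Differences between shares were tested with Fisher's exact test, two-sided, and Benjamini-Hochberg adjustment over 22 tests a list (16 for ranks) and a threshold of 0.05, and by Cochran-Mantel-Haenszel tests over 4 equal classes of rank or GC content (SciPy 1.17.1, statsmodels 0.14.6). The code was tested on simulated data. The members and gene lists were chosen with earlier results of these data known. The genes named are those at promoters outside repeated sequence, 8 each with the highest percentiles among kept, Sp1 WT-only and Sp1 DBD-only peaks (the latter with no summit of the other list at the gene), 4 each with the largest rank difference in either direction, and up to 3 a list and class among the 16 gene lists. Genes with AP-1 sites and the kept genes of the lists were named after their values were seen. Tests within classes of start and of sites by rank, and those within classes of GC content or, for shared sites, of rank, were added after seeing the data. Sequences were printed for named sites whose 201-base window held no annotated exon. The alternatives were stricter IDR limits (0.05, 0.01), 50% overlap, equal list length, removal of control peaks or repeated sequence, other distances and windows, and single replicates.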

Additional observations from a re-analysis of the deposited data

How the results depend on the processing

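Of 166 alternatives over 33 results, 144 were counted as the same. For odds ratios and the share downstream this meant the same direction and side of the threshold. Odds ratios that changed direction with neither p below the threshold also counted, such as CCAAT at Sp1 WT peaks (0.85 at IDR 0.01). Other shares had to stay within the Wilson interval, counts within a fixed factor, and rho, width and summit distance within the spread of replicates. By this rule the width ratio of 0.99 from the first replicates counted as the same as 0.87 from the merged peaks. The 50% overlap alternative could not change any result, because the smallest overlap covered 52.7% of the shorter peak, yet it was counted. The share of Sp1 WT peaks kept was 46.4% and 40.6% at IDR thresholds of 0.05 and 0.01 and 61.9% with lists of equal length, where that of Sp1 DBD peaks was 62.2%. For Sp1 WT peaks the CCAAT odds ratio was 1.20 within classes of GC content, 0.87 within classes of rank and 1.06 without them, and that of rabbit anti-V5 was 1.05 within classes of rank and 2.66 without them. The promoter odds ratio of Sp1 WT peaks was 1.485 at an IDR of 0.01. For Sp1 DBD peaks that of rabbit anti-V5 was 4.199 with equal length and 2.13 without, and the promoter odds ratio at an IDR of 0.01 was 1.42 (Fisher's exact test, p = 0.078). The GC box odds ratio there was 1.13 at an IDR of 0.05, 0.90 at 0.01, 1.12 with equal length, 1.146 without control peaks, 1.08 without repeated sequence and 1.13 within classes of rank, and it missed the threshold in all 6, while it passed at 1.72 within 250 bp, 2.07 anywhere in the peak and 1.38 within classes of GC content. The cause was not tested. From single replicates rho ranged from 0.58 to 0.72, the width ratio from 0.79 to 0.99, the summit distance from 36 to 48 bp and the share downstream from 50.3% to 56.5%. Single replicates were also compared through the highest and the lowest of 4 equal classes of the rank difference at shared sites. The odds ratio of the highest class ranged from 1.13 to 2.64 for GC boxes and from 0.41 to 0.56 for CCAAT boxes. It ranged from 0.14 to 0.49 for rabbit anti-V5 and from 2.66 to 3.44 for the chimera. Percentiles of whole lists gave 295 sites higher and 1173 lower, and equal length gave 981 genes in Sp1 WT only and 1027 in the Sp1 DBD only. No paired analysis was possible because the columns carry no replicate numbers. Splits by single replicates, classes of GC content and classes of rank at shared sites were chosen after seeing the data. Each line gave 1 list, the depth of the libraries was not used, and absence from a list is not absence of signal.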

Other observations

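Width and overlap were related differently in the highest of 4 equal rank classes of each list. Among Sp1 DBD peaks there, 91.4% of 186 under 1000 bp (86.5 to 94.6%), 83.8% of 499 from 1000 to under 2000 bp (80.3 to 86.7%) and 65.7% of 134 of 2000 bp or more (57.3 to 73.2%) overlapped an Sp1 WT peak. Among Sp1 WT peaks the shares were 75.4% of 353, 84.0% of 744 and 75.8% of 190. Summits of kept and Sp1 WT-only peaks were in exons in 33.7% and 29.4%, in introns in 30.97% and 34.4% and between genes in 35.3% and 36.2%. These values were not tested.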
